A study of Mus musculus with 6 samples.

Results

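Nt5e, the gene of the AMP-hydrolysing ectoenzyme CD73, and 9 further genes of extracellular nucleotide breakdown and adenosine handling were followed through 6 mouse liver libraries. The 10 genes were taken by symbol from a table of 24501 genes, after their difference between the groups had been seen, so their values below describe that difference and carry no test. They are Nt5e, the triphosphate diphosphohydrolase genes Entpd1, Entpd2, Entpd5 and Entpd8, the pyrophosphatase and phosphodiesterase genes Enpp1 and Enpp2, the adenosine-consuming enzyme genes Adk and Ada, and the adenosine receptor gene Adora1. All libraries came from male C57BL/6J mice, 11 weeks old, with both Gata4 alleles floxed (Gata4fl/fl), fed a Western diet for 3 weeks and fasted for 6 hours. In the 3 Control mice the injected adeno-associated virus (AAV8) was empty, and in the 3 Gata4LKO mice it carried Cre under Tbg, a promoter active in hepatocytes, so that other liver cells are not targeted. Injection was at 8 weeks of age, and another label places collection 7 days later, which leaves the interval unclear.

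Outside cells, ATP and ADP are cut to AMP by ectonucleotidases, and CD73 then releases adenosine from AMP. Adenosine signals through G protein-coupled receptors until transporters carry it into cells, where adenosine kinase returns it to AMP or adenosine deaminase turns it into inosine. In liver, CD73 lies on the canalicular face of hepatocytes and on some non-parenchymal cells, and the pathway is known for its part in blood flow, inflammation and fibrosis.

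The libraries held 33274223 to 37390345 reads. Gata4 itself had 546 to 704 normalised reads in the Control libraries and 848 to 895 in those labelled Gata4LKO. Reads of the targeted gene were thus not lower, and which libraries are knockouts is known only by label. The log2 fold change of Gata4 was 0.47 and did not pass (adjusted p by limma = 0.0641, Benjamini-Hochberg). A count over the whole gene does not separate deleted from kept exons. Nor does whole tissue separate hepatocytes from the liver cells that were not targeted, so loss of Gata4 in hepatocytes was not tested. Over all 14385 genes tested, 2.06% passed limma at an adjusted p under 0.05, 1.97% passed edgeR, 9.48% passed DESeq2, and 22.4% had an unadjusted limma p under 0.05. Endothelial markers were higher in the Gata4LKO-labelled libraries: all 10 had positive fold changes and 5 passed the test, with summed levels of 6595 to 7907 against 10417 to 12808 normalised reads. Macrophage markers summed to 3362 to 7896 among the controls and 9186 to 19251 in the Gata4LKO-labelled libraries, and stellate cell markers to 4652 to 12214 and 14313 to 16941. None of these 20 passed limma, while all 20 had unadjusted p under 0.05, 0 passed edgeR, and 7 macrophage and 4 stellate markers passed DESeq2. Lymphocyte markers summed to 167 to 509 and 533 to 724 (0 of 8 past limma or edgeR, 4 at an unadjusted p under 0.05, 1 past DESeq2). Much of these sums was Ptprc, at 64.5 to 297 and 339 to 488 normalised reads. Ptprc and Cd3e were higher without overlap, and the other markers of this list overlapped. Cholangiocyte sums overlapped, 1137 to 1483 and 969 to 1401, and were mostly Spp1. Of the 7 markers 1, Sox9, had a positive fold change of 0.70 and was higher without overlap, at 146 to 265 and 300 to 366 normalised reads. Krt19, Krt7 and Muc1 were lower without overlap, on only 2.05 to 41.6 normalised reads per library. The median of the 7 was -0.59 (0 past limma or edgeR, 3 at an unadjusted p under 0.05, 1 past DESeq2). The 6 hepatocyte markers were abundant in every library and all had negative fold changes, with a median of -0.22 (0 past limma or edgeR, 1 at an unadjusted p under 0.05, 2 past DESeq2). They summed to 2.79e+06 to 3.75e+06 and 1.98e+06 to 2.39e+06 normalised reads, mostly Alb. Alb, Apoa2 and Ttr were lower without overlap, and Cps1, Fgb and Hnf4a overlapped. A marker score, the mean of centred log2 values of 50 non-hepatocyte markers, did not overlap between the groups, at -0.79 to 0.09 and 0.30 to 0.45, and was used as a covariate below. The score goes with the group and varies little within the Gata4LKO-labelled libraries. Fold changes with it are given without a standard error, and they cannot tell group and cell content apart. In whole tissue, fewer cells of a type and less RNA per cell cannot be told apart.

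The promoters of the genes with the highest and the lowest fold change among the 10, Nt5e and Adora1, are printed first, with that of Entpd2, whose window holds the core letters bound by GATA factors. Each is the 250 bases before a RefSeq start (build GRCm38.p6), 5′ to 3′ on the gene's strand. Capitals mark the GC box GGGCGG, a site of SP1-type factors, for Nt5e and Adora1, and the core GATA for Entpd2, either strand in each case.
Nt5e, chr9:88327359-88327608, plus strand: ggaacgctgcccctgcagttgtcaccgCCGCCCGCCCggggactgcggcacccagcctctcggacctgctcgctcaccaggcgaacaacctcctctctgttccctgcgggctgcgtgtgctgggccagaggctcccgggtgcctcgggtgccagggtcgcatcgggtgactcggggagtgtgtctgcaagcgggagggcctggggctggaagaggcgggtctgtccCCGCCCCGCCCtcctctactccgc
Adora1, chr1:134235458-134235707, minus strand: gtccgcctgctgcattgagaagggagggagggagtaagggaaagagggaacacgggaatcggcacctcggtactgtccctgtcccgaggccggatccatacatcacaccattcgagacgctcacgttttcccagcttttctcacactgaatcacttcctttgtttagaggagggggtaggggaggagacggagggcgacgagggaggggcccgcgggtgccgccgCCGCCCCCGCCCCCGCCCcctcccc
Entpd2, chr2:25395624-25395873, plus strand: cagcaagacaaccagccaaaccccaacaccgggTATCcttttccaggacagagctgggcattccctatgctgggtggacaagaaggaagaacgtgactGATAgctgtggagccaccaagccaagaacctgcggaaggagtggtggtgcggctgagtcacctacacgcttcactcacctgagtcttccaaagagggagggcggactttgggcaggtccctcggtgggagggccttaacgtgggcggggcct

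RefSeq gave 12 such windows for 9 of the 10 genes. GATA was present in 2 of the 12, in Entpd2 and in the upstream start of Entpd1, and in 53.6% of all 32851 promoter windows. The Nt5e window was rich in G and C (72.0%, against a mean of 53.2% over all windows) and held 4 GC boxes in 2 overlapping pairs, 223 and 219 and then 24 and 19 bases before the start. Adora1 held 3 GC boxes within 25 bases of this start, and its second RefSeq start held none. The GC box was in 7 of the 12 windows and in 32.7% of all. The core of the hypoxia response element (ACGTG or GCGTG) was in 8 of 12 and in 38.6% of all, and the short core of the cAMP response element (TGACG) in 5 of 12 and in 17.8% of all. Both strands were searched throughout. These are matches of letters and say nothing of binding.

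Nt5e was the gene of the 10 with the highest fold change. Its ENSMUSG00000032420 row lies on chromosome 9 (88327197 to 88372092, plus strand, mm10). Positions of genes are those of GENCODE M21, and the RefSeq window printed above lies inside this span. It had 351, 183 and 141 normalised reads in Control replicates 1, 2 and 3 and 1157, 929.5 and 678 in Gata4LKO replicates 1, 2 and 3. The groups did not overlap: the lowest Gata4LKO-labelled library stood 1.93-fold above the highest control. Group means were 225 ± 111 and 922 ± 239 (SD, n = 3 each), a ratio of 4.10. On the log2(value + 1) scale used throughout, the difference was 2.11 (standard error, SE, 0.34), and 1.75 with the marker score as covariate. The controls themselves spanned 2.49-fold, Control replicate 1 being the highest, and on the log2 scale their SD of 0.67 was larger than that of 92.8% of the 14385 genes tested. Behind these values stood 151 to 341 reads per control library and 718 to 1131 per Gata4LKO-labelled library.

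**Figure D1:**
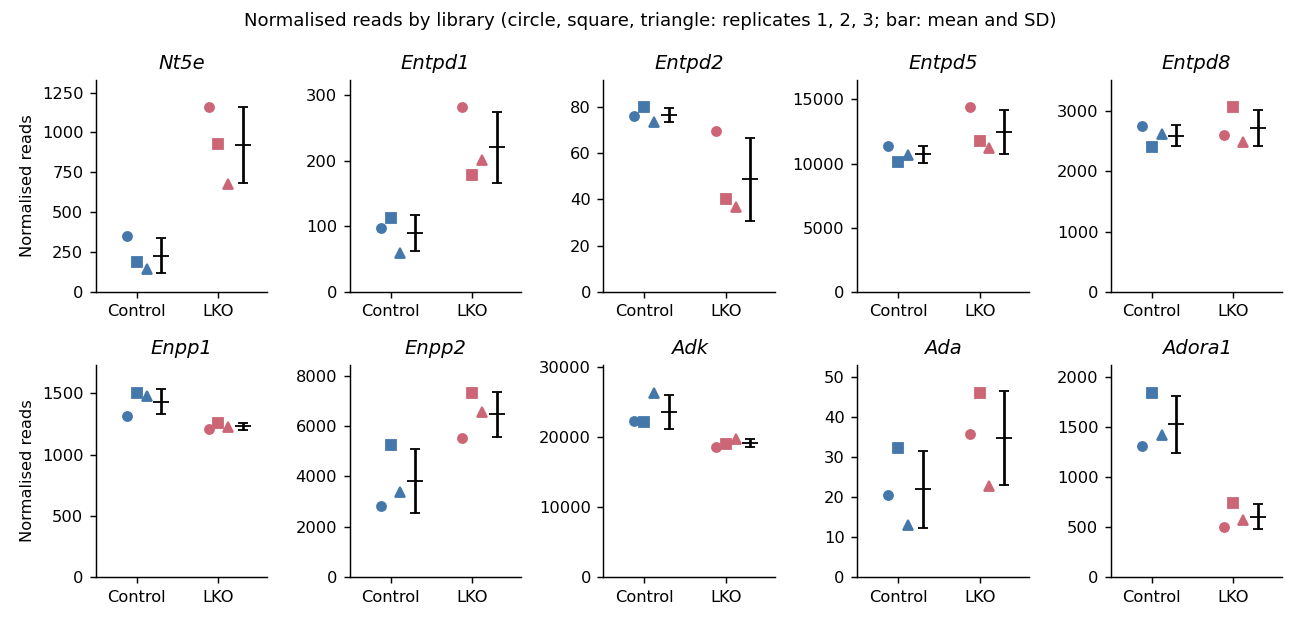
Normalised reads (vertical axes, from 0) of the 10 genes in the 3 Control and 3 Gata4LKO (LKO) libraries, with the mean and SD of each group beside the points. Nt5e, Entpd1 and Enpp2 lie higher in all 3 Gata4LKO-labelled libraries, Adora1, Adk, Enpp1 and Entpd2 lie lower, and Entpd5, Entpd8 and Ada overlap.

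Over the 10 genes, all of which passed the filter on low values, 6 fold changes were positive and 4 negative, with a median of 0.14 on the log2 scale against -0.01 over all genes tested. The groups did not overlap for 3 genes that were higher and 4 that were lower. Over all genes tested, 15% did not overlap with Gata4LKO higher and 13.4% with Gata4LKO lower. At a limma adjusted p under 0.05, 2 of the 10 were past the threshold, where 2.06% of all genes were: Nt5e on the higher side, with 1.13% of all genes, and Adora1 on the lower side, with 0.932%. Since this contrast chose the genes, nothing is read from these counts.

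Among the enzymes that take phosphates off nucleotides, the 4 NTPDase genes of the 10 differed: Entpd1 was higher, Entpd2 lower, and Entpd5 and Entpd8 overlapped. Entpd1 (ENSMUSG00000048120, chromosome 19, 40612366 to 40741602, plus strand) encodes CD39, which cuts ATP and ADP to AMP and is known from endothelial and immune cells. It had 97.7, 112 and 58.8 normalised reads in Control replicates 1 to 3 and 281, 178 and 201 in Gata4LKO replicates 1 to 3. All 3 Gata4LKO-labelled libraries were above all controls, by at least 1.58-fold, and the log2 fold change was 1.31 (SE 0.28), and 0.50 with the marker score as covariate. The order of the 6 libraries by Entpd1 was the same as their order by the summed macrophage markers given above. That was the only identical order among the 70 pairs of these 10 genes with 7 marker lists. Both Entpd1 and this sum were higher without overlap in the Gata4LKO-labelled libraries, so only the order within each group was free to differ. With 70 pairs examined, nothing is read from the match.

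Entpd2 (ENSMUSG00000015085, chromosome 2, 25395874 to 25401321, plus strand) encodes an enzyme that prefers ATP over ADP and is known in liver from portal fibroblasts. Its normalised reads were 76.1, 80.0 and 73.8 among the controls and 69.6, 40.2 and 36.8 in Gata4LKO replicates 1, 2 and 3. Gata4LKO replicate 1 stood close to the controls, only 1.06-fold below the lowest of them, while the other two were far lower, and the log2 fold change was -0.70 (SE 0.26). Portal fibroblast markers summed to 191 to 260 normalised reads among the controls and 184 to 340.3 in the Gata4LKO-labelled libraries, which overlap (0 of 5 markers past limma, edgeR or DESeq2, and 0 at an unadjusted p under 0.05). An annotated neighbour on the same strand, Npdc1, shares 612 exonic bases with Entpd2, so reads of either could be assigned to the other.

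Entpd8 and Entpd5 made up nearly all of the summed level of these 4 NTPDase genes per kilobase, and each overlapped between the groups. The sum leaves out Entpd6 and Entpd7, which were listed with the other ectoenzymes. Entpd8 (ENSMUSG00000036813, chromosome 2, 25080304 to 25085716, plus strand) is the NTPDase of the bile canaliculus. It had 2762, 2408 and 2616 normalised reads among the controls and 2604, 3068 and 2496 in the Gata4LKO-labelled libraries. Entpd5 (ENSMUSG00000021236, chromosome 12, 84373857 to 84409029, minus strand) hydrolyses UDP and GDP in the endoplasmic reticulum and in soluble form. It had 11391, 10105 and 10666 and then 14385, 11752 and 11243. Their log2 fold changes were 0.07 (SE 0.10) and 0.21 (SE 0.11). Counted per kilobase of exon, Entpd5 held 62.2% to 69.6% of the summed level of the 4 genes in the 6 libraries, Entpd8 28.0% to 36.1%, Entpd2 0.603% to 1.44% and Entpd1 0.38% to 1.47%. The Entpd1 share was 0.38% to 0.768% among the controls and 1.02% to 1.47% in the Gata4LKO-labelled libraries, so the gene with the highest fold change of these 4 was a small part of their sum.

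Of the NPP genes, Enpp1 was slightly lower and Enpp2 higher. Enpp1 (ENSMUSG00000037370, chromosome 10, 24637914 to 24712159, minus strand) makes AMP and pyrophosphate directly from ATP and is known as a brake on mineralisation. Its normalised reads were 1314, 1505 and 1481 among the controls and 1207, 1262 and 1223 in the Gata4LKO-labelled libraries, without overlap but only 1.04-fold apart at the nearest values, and the log2 fold change was -0.22 (SE 0.08). Enpp2 (ENSMUSG00000022425, chromosome 15, 54838901 to 54952892, minus strand) encodes autotaxin, a secreted enzyme that cleaves nucleotides in vitro and is best known for making lysophosphatidic acid (LPA). It had 2813, 5252 and 3354 normalised reads among the controls and 5539, 7319 and 6541 in the Gata4LKO-labelled libraries. Control replicate 2 came close to the lowest Gata4LKO-labelled library, with a gap of 1.05-fold, and the log2 fold change was 0.81 (SE 0.22), and 0.30 with the marker score as covariate. The same control library had the highest sum among the controls for stellate markers, 12214 against 4652 and 5691, and also for endothelial, macrophage, lymphocyte and portal fibroblast markers. Within the Gata4LKO-labelled libraries the orders differed. Enpp2 was lowest in replicate 1, where the stellate sum was highest, 16941 against 15007 and 14313 in replicates 2 and 3. The part of these cells in the result was not tested. The lncRNA gene Gm26684 shares 345 exonic bases with Enpp2 on the opposite strand and had a log2 fold change of 0.29 (adjusted p by limma = 0.474).

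**Figure D2:**
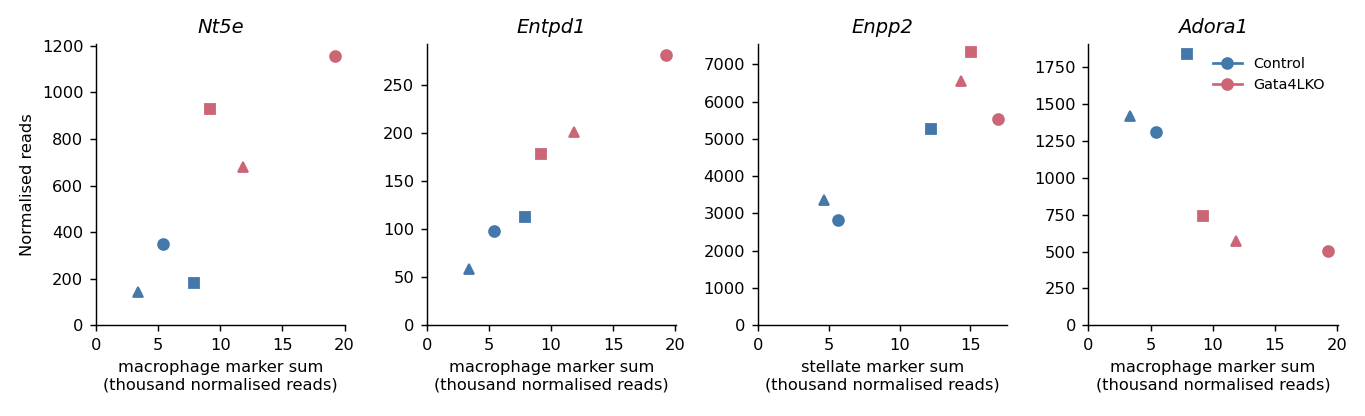
Normalised reads of Nt5e, Entpd1, Enpp2 and Adora1 (vertical axes) against the summed normalised reads of macrophage or stellate cell markers (horizontal axes) in the 6 libraries, with circles, squares and triangles for replicates 1, 2 and 3. Entpd1 and the macrophage sum have the same order over all 6 libraries, the only such pair of 70 examined, and nothing is read from it. Among the controls, Nt5e is highest in replicate 1 and the macrophage sum in replicate 2.

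The 2 genes of adenosine removal differed widely in level. Adk (ENSMUSG00000039197, chromosome 14, 21052574 to 21448569, plus strand) encodes adenosine kinase. It had 22269.8, 22052 and 26305 normalised reads among the controls and 18548, 19047 and 19643 in the Gata4LKO-labelled libraries. The Gata4LKO values were all lower and lay within 1.06-fold of each other, and the log2 fold change was -0.30 (SE 0.09), and -0.09 with the marker score as covariate. Ordered by Adk, the 6 libraries ran exactly opposite to their order by summed stellate or lymphocyte markers, 2 of the 70 pairs examined. Adk was lower and both sums higher without overlap, so only the order within each group was free to differ, and nothing is read from these matches. Ada (ENSMUSG00000017697, chromosome 2, 163726584 to 163750239, minus strand) encodes adenosine deaminase. It had 20.6, 32.2 and 13.1 normalised reads among the controls and 35.8, 46.2 and 22.7 in the Gata4LKO-labelled libraries, which overlap. Its log2 fold change of 0.68 (SE 0.40) rests on 14 to 46 reads per library and was -0.38 with the marker score as covariate. Per kilobase of exon, Adk stood 161 to 472 times above Ada among the controls and 96.9 to 203 times in the Gata4LKO-labelled libraries. The level of Adk relative to Nt5e, on the same scale, was 64.0, 122 and 188 among the controls and 16.2, 20.7 and 29.2 in the Gata4LKO-labelled libraries. These ratios could not overlap, since Adk was lower and Nt5e higher in every Gata4LKO-labelled library, so they add no further result.

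Adora1 (ENSMUSG00000042429, chromosome 1, 134199223 to 134235431, minus strand) encodes the A1 receptor, which is coupled to inhibitory G proteins and binds adenosine with high affinity. It had the lowest fold change of the 10. Normalised reads were 1311, 1842 and 1419.8 in Control replicates 1, 2 and 3 and 501, 739 and 569.6 in the Gata4LKO-labelled libraries. The lowest control stood 1.77-fold above the highest Gata4LKO-labelled library. Group means were 1524 ± 281 and 603 ± 122 (SD, n = 3 each), a ratio of 0.396; the log2 fold change was -1.34 (SE 0.17), and -1.61 with the marker score as covariate. Nt5e was thus high and Adora1 low in the same libraries. Mybph, annotated on the opposite strand, shares 1162 exonic bases with Adora1 and was not analysed here, and the strand setting of the counting is not given in the sources used here.

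**Figure D3:**
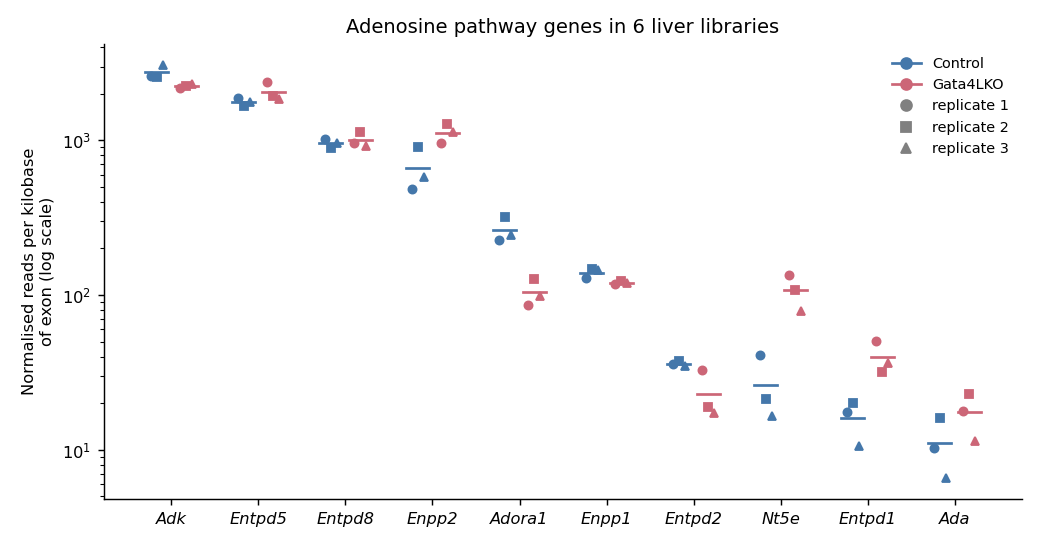
Level of each gene in normalised reads per kilobase of exon (log axis) in the 6 libraries, ordered by the mean of the controls; points are libraries and lines group means. Adk and Entpd5 are the highest in both groups by their means. The means of Entpd8 and Enpp2 change places between the groups, but their ranges overlap in both groups, so this order is not resolved. Nt5e goes from a control mean of 26.1, below that of Entpd2, to a Gata4LKO mean of 107, level with Adora1 at 104.

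In the controls alone, where no contrast enters, the levels per kilobase spanned 2761 ± 281 for Adk to 11.0 ± 4.81 for Ada (SD, n = 3). Between them came Entpd5 (1775 ± 107), Entpd8 (956 ± 65.5), Enpp2 (659 ± 222), Adora1 (263 ± 48.5), Enpp1 (139.7 ± 10.2), Entpd2 (36.0 ± 1.47), Nt5e (26.1 ± 12.9) and Entpd1 (16.1 ± 4.94). The ranges over the 3 controls overlapped between Entpd8 and Enpp2 and between each neighbouring pair from Entpd2 down to Ada, so these orders are not resolved. Nt5e thus stood at the 27.4th percentile of the 14377 tested genes with an exon length, and Adk at the 96.8th. Dividing by the longest transcript in place of all exons put Enpp2 above Entpd8 and Nt5e above Entpd2. In the Gata4LKO-labelled libraries Nt5e had 78.8 to 134 normalised reads per kilobase, above Entpd2 (17.3 to 32.7) and overlapping Adora1 (86.6 to 128) and Enpp1 (118 to 123).

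The other genes of the pathway were listed by role, with earlier results of these data known, and a test is given for them. Of 70 with a value, 53 passed the filter on low values, and 4 of these passed the test at an adjusted p under 0.05 by limma, 3 of them higher and 1 lower. That is 7.55%, against 2.06% of all genes tested. Their median log2 fold change was -0.01, equal to that of all genes at this precision. The groups did not overlap for 19 of the 53, or 35.8%, where 28.3% of all genes did not. The count of 4 leaned on every library. It was 0 without Control replicate 1 or 3 or any 1 of the Gata4LKO replicates. Without Control replicate 2 it was 2, of which 1, Cd38, was among the 4. It was 3 with edgeR and 11 with DESeq2 on the recovered reads, 2 without a filter, 0 without the variance trend and 0 with the marker score. With the marker score the fold changes were 0.58 for Alpl, 0.37 for Plpp3 and -0.69 for Uox, each at least as large as without it, and 0.52 for Cd38, which was smaller.

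**Figure D4:**
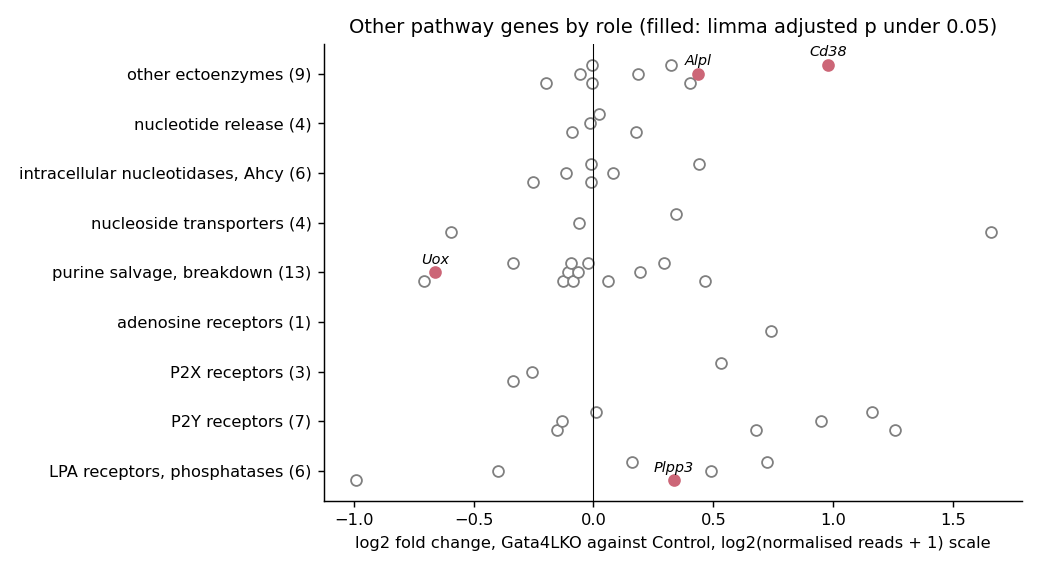
Log2 fold change of the 53 tested pathway genes outside the 10 (horizontal axis), grouped by role with the number tested in brackets. Filled points are the 4 genes past the threshold, Cd38, Alpl and Plpp3 higher and Uox lower; the other 49 are open. In all, 26 of the 53 fold changes are positive.

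Among the other ectoenzymes, 2 of 9 rose and 0 fell, where 1.13% of all genes rose and 0.932% fell. Cd38, an ectoenzyme that splits NAD and so feeds a second route to AMP, had 207, 253 and 173 normalised reads among the controls and 422, 408 and 404 in the Gata4LKO-labelled libraries. It rose by 0.98 on the log2 scale (SE 0.15, adjusted p by limma = 0.028). With the marker score as covariate the value was 0.52, without passing, and the call was also lost without the variance trend and without any 1 library other than Control replicate 2. Macrophage marker sums were 5408, 7896 and 3362 in Control replicates 1 to 3, in the same order as Cd38, and 19251, 9186 and 11843 in Gata4LKO replicates 1 to 3, in another order. Their part in the result was not tested. Alpl encodes tissue-nonspecific alkaline phosphatase, which can also release adenosine from AMP. It had 833, 746 and 851 normalised reads among the controls and 1135, 1029.9 and 1122 in the Gata4LKO-labelled libraries, and rose by 0.44 (SE 0.08, adjusted p by limma = 0.0489). The call held in 8 of 17 alternatives and was lost without a filter (0.0543), without the variance trend (0.103), with the marker score (0.266) and without any 1 of the 6 libraries. Enpp3, the most abundant of these 9 per kilobase at 613 in the controls, had a log2 fold change of -0.20 without passing.

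Nucleotide release and nucleoside transport had no gene past the test. Of 4 release genes, 0 passed limma, edgeR or DESeq2, and 0 had an unadjusted p under 0.05. Abcc6, an ABC transporter needed for ATP release from hepatocytes, had a log2 fold change of 0.02, and Ank, which exports ATP and pyrophosphate, had -0.02. Of 4 nucleoside transporters, 0 passed limma or edgeR, 1 had an unadjusted p under 0.05 and 1 passed DESeq2. Slc29a1, the equilibrative transporter ENT1 and the most abundant of them, had a log2 fold change of -0.06. Slc28a2, a concentrative transporter for purine nucleosides, had 7.20, 7.27 and 3.74 normalised reads among the controls and 18.4, 20.1 and 23.6 in the Gata4LKO-labelled libraries, with a log2 fold change of 1.66 (adjusted p by limma = 0.0657). It is the gene DESeq2 called, and a near-identical copy could share its few reads.

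Inside the cell, 0 of 6 genes of intracellular nucleotidases and S-adenosylhomocysteine hydrolase passed limma, edgeR or DESeq2, and 1 had an unadjusted p under 0.05. Ahcy, which releases adenosine from S-adenosylhomocysteine and was the most abundant of these, had a log2 fold change of 0.08. Of 13 genes of purine salvage and breakdown, 0 rose and 1 fell, against the same shares of all genes. Uox encodes urate oxidase, which removes the end product of purine breakdown in mice, and was the most abundant gene of the whole list. It had 93641, 110198 and 108991 normalised reads among the controls and 66579.6, 68862 and 62165 in the Gata4LKO-labelled libraries, and fell by 0.66 (SE 0.12, adjusted p by limma = 0.0444). The call held in 9 of 17 alternatives and was lost without any 1 of the 6 libraries, without the variance trend and with the marker score. Xdh, which makes urate, had a log2 fold change of -0.02, and the purine nucleoside phosphorylase gene Pnp had -0.09, with reads that may be shared with its copy Pnp2. Aprt, which salvages adenine, had -0.71 without passing limma (adjusted p = 0.0718) and was called by DESeq2.

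Adora1 had the highest level per kilobase of the adenosine receptor genes in both groups. Adora2a, which raises cAMP, had 16.8 to 45.7 normalised reads among the controls and 36.8 to 63.4 in the Gata4LKO-labelled libraries, which overlap, and a log2 fold change of 0.74 without passing (adjusted p by limma = 0.325). With the marker score as covariate it was -0.51. Per kilobase, Adora1 had 263 in the controls against 9.38 for Adora2a, and 104 against 15.1 in the Gata4LKO-labelled libraries. Adora2b and Adora3 had at most 2 reads in any library and were not tested.

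Receptors for ATP and other nucleotides had no gene past limma or edgeR. Of 3 P2X receptors, 2 had an unadjusted p under 0.05 and 0 passed DESeq2, and of 7 P2Y receptors 3 and 2 did. The 2 that DESeq2 called were P2ry12 and P2ry13, ADP receptors known from platelets and macrophage-lineage cells. Their limma log2 fold changes were 1.16 and 1.26 (adjusted p = 0.0763 and 0.124). P2rx4, the most abundant P2X gene per kilobase, had -0.26, and P2ry1, the most abundant P2Y gene, had -0.13.

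Around the product of autotaxin, 1 of 6 genes rose and 0 fell, where 1.13% of all genes rose. Plpp3, a phosphatase that removes LPA at the cell surface, had 7026, 6956 and 7095 normalised reads among the controls and 8714, 8634 and 9271 in the Gata4LKO-labelled libraries. It rose by 0.34 (SE 0.06, adjusted p by limma = 0.0481). The call held in 7 of 17 alternatives and was lost with edgeR (0.0570), without a filter (0.0647), without the variance trend (0.107), with the marker score (0.394) and without any 1 of the 6 libraries. Lpar6, the most abundant LPA receptor per kilobase, had a log2 fold change of 0.49 (adjusted p by limma = 0.0586) and was called by DESeq2, as were Plpp1 (0.72) and Plpp2 (-0.40), which did not pass limma. The groups did not overlap for 5 of the 6, 3 higher and 2 lower, against 28.3% of all genes. That was the highest share of any role, the others running from 0% to 42.9%. Since the roles hold few genes and were listed with earlier results known, nothing is read from it.

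Position was examined for the 10 genes, since neighbours were not used to choose them. The nearest tested gene to Nt5e is Snx14, a sorting nexin gene 4.66 kb beyond its end, with 763, 823 and 847 normalised reads among the controls and 782, 726 and 740.6 in the Gata4LKO-labelled libraries. Its log2 fold change was -0.11 (adjusted p by limma = 0.439). Gm28229 lies 69.4 kb away and had -0.40 (0.366), while Cep162 and Cyb5r4, 1072 and 1249 kb before Nt5e, had -0.13 and -0.00196 (0.618 and 0.995). Of the 40 nearest tested neighbours of the 10 genes, 2 on each side, 0 passed limma or edgeR, where 2.06% and 1.97% of all genes did. At such shares 40 genes are too few to read anything from the 0. An unadjusted p under 0.05 was found for 11 of the 40, and 4 passed DESeq2, where 22.4% and 9.48% of all genes did. The fold changes of the 40 ran from -2.05 to 1.56. Beside Adora1, which had a negative fold change, lay Ppfia4, which had a positive fold change of 1.56 without passing (adjusted p by limma = 0.0996).

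**Figure D5:**
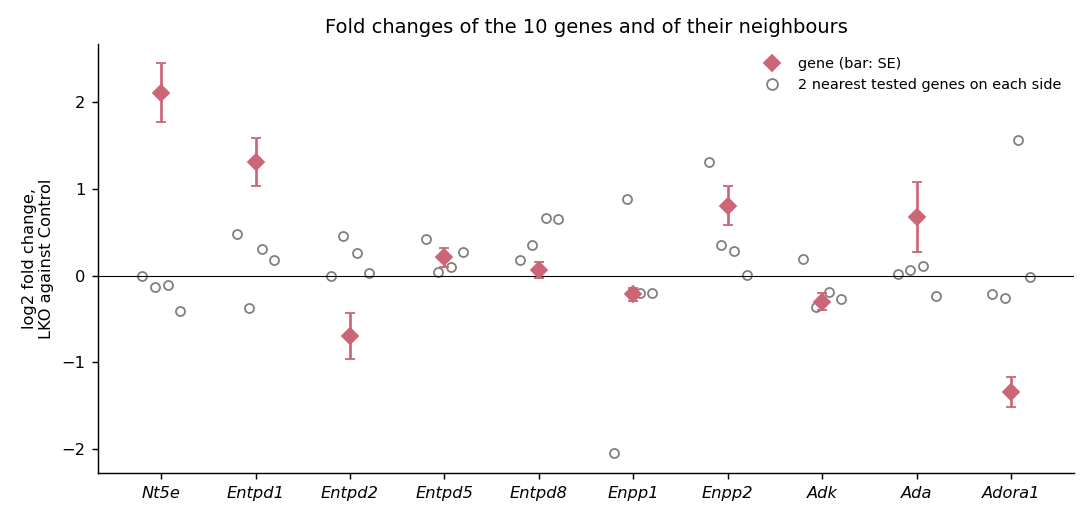
Log2 fold change (vertical axis) of each of the 10 genes, with its standard error, and of the 2 nearest tested genes on either side. Nt5e, chosen with its difference known, is at 2.11, and its 4 neighbours lie between -0.40 and -0.00196. Of these neighbours, Cep162 and Cyb5r4 are 1072 and 1249 kb away. None of the 40 neighbours passed limma, which 2.06% of all genes tested did.

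The genes whose profile over the 6 libraries was most like that of Nt5e were found by the root-mean-square difference of centred log2 values among 11462 genes with a mean of at least 50. They were Vnn1 (0.20), a pantetheinase gene, Clstn3 (0.22), a calsyntenin gene, Serpina7 (0.22), which encodes thyroxine-binding globulin, Sema5b (0.28), a semaphorin gene, and Lrfn3 (0.34), a synaptic adhesion gene. Vnn1 had 1386, 929 and 493 normalised reads in Control replicates 1 to 3 and 4207, 3131 and 2906 in Gata4LKO replicates 1 to 3, the order of libraries that Nt5e shows within each group. The log2 fold changes of these 5 genes ran from 1.71 to 2.38, and the likeness is a description only. Among the 8 other genes of the 10 that were ranked (Ada was under the minimum mean), Entpd1 came nearest to Nt5e (0.55, place 36 in that order) and Adora1 was the farthest (1.81, place 11368).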

How the data were processed

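Stranded libraries were prepared from liver mRNA, as the labels' protocols state. Tools named in the submitters' processing notes are FastQC, STAR 2.6.0c and DESeq2, with build mm10; no source used here gives the read counter, how it treated strand, or the annotation. The deposited signal is a normalised read count per gene. All values (100%) lay within a tolerance of 0.1 of whole multiples of 1 step per library, and division by it recovered the reads; in 1 Gata4LKO library the step is so near 1 that it rests on decimals.

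The 10 genes, the pathway list and the marker lists were chosen with earlier results of these data known. The test was limma 3.58.1 (R 4.3.3) with an intensity trend on log2(value + 1), over 14385 genes with a mean of at least 10, two-sided, with Benjamini-Hochberg adjustment at 0.05 and no covariate. Alternatives used edgeR 4.0.16 and DESeq2 1.42.0 on the recovered reads, other scalings, filters and pseudocounts, a marker score as covariate, and each library left out. All tools were tested on simulated counts. Named genes were the 10, pathway genes past the test or most abundant in their role, adenosine receptors, neighbours of Nt5e and the 5 most similar profiles; other names were chosen after their values were seen. Lengths and positions came from GENCODE M21, which held 24480 of 24501 identifiers. Replicates were numbered in accession order and pair no mice. The labels name a separate animal for each library.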

Additional observations from a re-analysis of the deposited data

How the results depend on the processing

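Over 17 alternatives the log2 fold change of Nt5e ran from 1.75, with the marker score, to 2.48 without Control replicate 1. That of Adora1 ran from -1.61 to -1.19. Neither sign turned. For both genes the groups did not overlap, so leaving out a library or changing the filter or pseudocount could not have turned it. The sign turned for Ada with the marker score (-0.38), for Entpd8 with single libraries left out (-0.024 to 0.13, negative without Gata4LKO replicate 2) and for Adora2a with the marker score (-0.51); the cause was not tested. Entpd5 stood at 0.10 without Gata4LKO replicate 1 and Ada to 0.37 without Control replicate 3. The count of 296 genes past the threshold was 458 with equal library sums, 25 without the variance trend, 2 with the marker score and 1364 with DESeq2, and 27 to 792 when 1 library was left out. Equal sums made 328 of 458 higher, against 162 of 296. The count of 4 other pathway genes became 2 without a filter, 0 without the trend, 0 with the marker score, 11 with DESeq2 and 0 to 2 with 1 library left out. Of the 2 called without Control replicate 2, only Cd38 was among the 4. Over the alternatives the adjusted p ran from 3.9e-06 to 0.369 for Cd38, 0.00216 to 0.266 for Alpl, 0.000414 to 0.394 for Plpp3 and 1.73e-08 to 0.391 for Uox. No paired analysis was possible because the labels give the groups no shared replicate numbers. Depth limits the low genes, among them Ada, Adora2a and Slc28a2, and leaves Adora2b and Adora3 untested.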
